A study of Homo sapiens with 12 samples.

Results

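The 10 transcripts described here belong to regulated secretion, the release of stored vesicle content on a signal. They were followed by RNA sequencing in RKO, a long-established cell line from a human carcinoma of the colon, and were taken by gene symbol from the deposited count files, where they are 10 of 26364 genes. SCG2, SCG5, CHGA, CHGB and VGF are 5 genes of the granin family, and RAB27A and RAB27B the 2 RAB27 GTPase genes. SYTL2 and SYTL3 are 2 of the genes of synaptotagmin-like RAB27 effectors, and PCLO is 1 gene of the presynaptic active zone. The 12 libraries of polyadenylated RNA form 6 groups of 2. The groups are wild-type RKO cells (WT), the PRDM1 knockout derivatives KO2 and KO5 made with CRISPR/Cas9, and derivatives overexpressing GFP, PRDM1α (alpha) or PRDM1β (beta). All were grown in the same medium with serum and antibiotics, and the labels give no other treatment. The labels do not say whether a derivative is 1 clone, which promoter drives the overexpressed genes, or if paired libraries stem from different cultures, so the p-values measure only the spread between these libraries. PRDM1 encodes a zinc finger repressor known best from plasma cell differentiation.

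The set was chosen by values already measured in these libraries, namely the higher SCG2 level with beta than with GFP and the differences of SCG2 and RAB27B between alpha and beta. Values of the 10 genes that involve the alpha, beta or GFP libraries are therefore given as a description, with no test. The WT, KO2 and KO5 libraries do not enter those differences, and between them the genes were tested in a fit over all 12858 genes with enough counts. It is not stated whether knockout values also had a part in the choice of the set, and where they had, the p-values below are descriptions too.

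In endocrine and nerve cells, granins are acidic proteins that aggregate in the trans-Golgi network, take part in the formation of dense core vesicles, and in part are cut into peptides by prohormone convertases. RAB27 GTPases sit on the vesicle membrane and bind effectors of the synaptotagmin-like family, which tether the vesicle to the plasma membrane, where SNARE proteins fuse both membranes. In the intestine this machinery is best known from enteroendocrine cells, while RAB27 proteins also serve exosome release and lysosome-related organelles in other cells.

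Libraries held between 19058967 and 55961821 gene counts. Levels are given as CPM, the share of the gene counts of a library scaled to a common total, and in the shallowest library 0 counts leave room for 0.157 CPM, at a floor of 3 counts. PRDM1 had 4 and 4 counts in WT, 0 and 1 in KO2, 1 and 1 in KO5 and 2 and 6 in the GFP cells. The alpha cells had 11475 and 9681 and the beta cells 22395 and 28423. The counts therefore match the overexpression labels, whereas PRDM1 was so low in WT that its loss was not detectable in the knockouts. Of 10 colon epithelial markers KRT8, KRT18 and CDX2 were expressed in every library, while EPCAM, CDX1 and CDH17 were at 0 in all 12 and CDH1, KRT19, KRT20 and VIL1 had at most 2 counts in any. Of 20 enteroendocrine markers 16 were at 0 in all libraries, among them NEUROD1, NEUROG3, INSM1, SCGN, GCG, CCK and SST, and the summed level of the list lay between 0.799 and 1.66 CPM, with TPH1 and SYP giving most of it. All 6 leukocyte markers had under 10 counts in every library. Of 6 fibroblast markers COL1A1 and PDGFRB were expressed throughout, and the summed level of the list lay between 8.37 and 16.2 CPM, lowest in KO2 and highest with alpha. POSTN of this list averaged 3.24 CPM with alpha and 2.67 with beta and at most 0.394 in the other groups, and its part in the values below was not tested.

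Of the 10 genes, 7 had enough counts to be tested, and CHGA, CHGB and SYTL2 did not. SCG5 passed the filter through its alpha libraries alone. The plot of CPM by library shows the 8 genes with more than a stray count, and their levels followed several different orders across the groups.

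**Figure D1:**
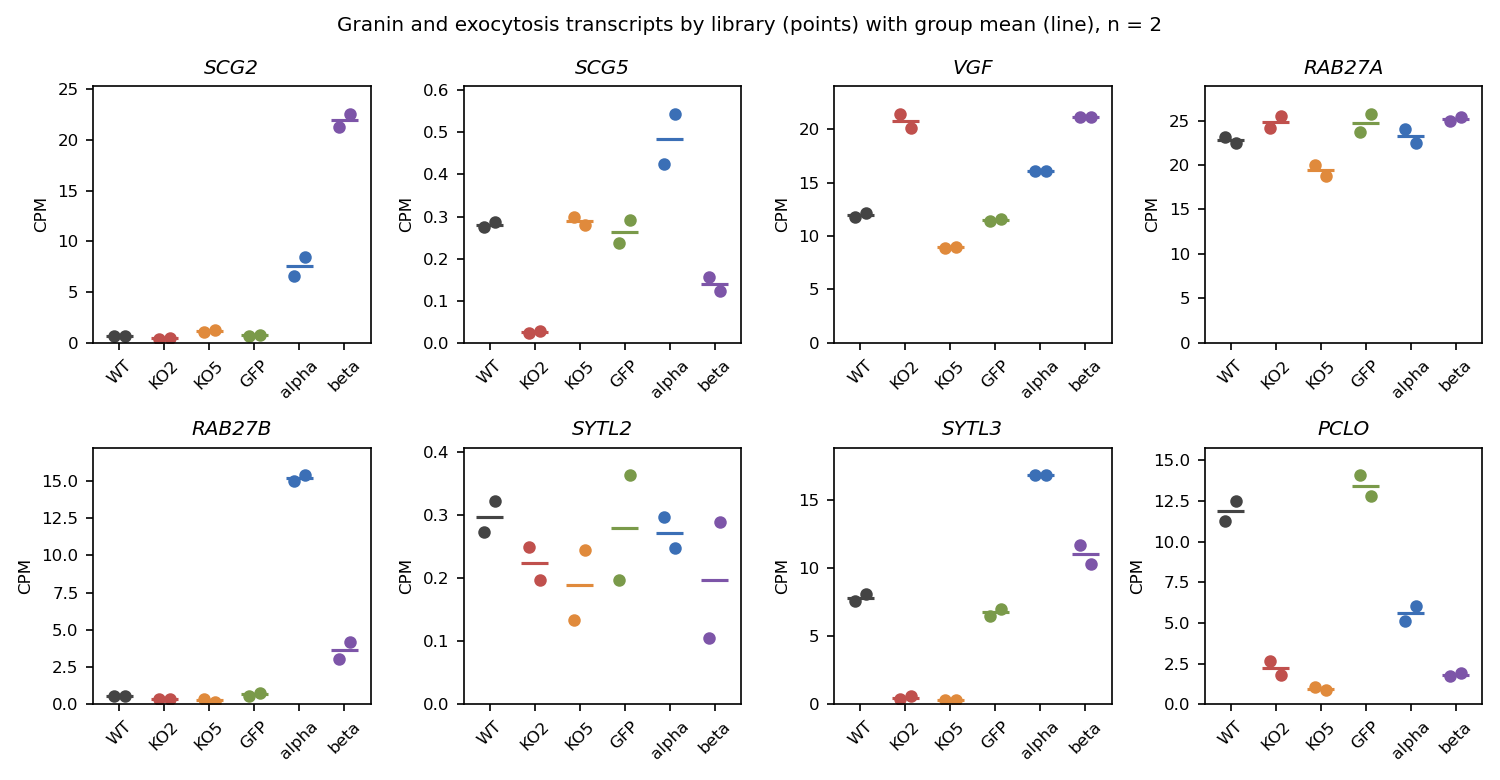
CPM of 8 granin and exocytosis genes (vertical axis, linear, from 0, its own scale in each panel) in WT, KO2, KO5, GFP, alpha and beta libraries; points are single libraries and lines the mean of 2. SCG2 and RAB27B are high with alpha and beta, SYTL3 and PCLO are low in both knockouts, and RAB27A stays between 18.8 and 25.8 CPM in all 12 libraries.

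The classical chromogranins were absent or nearly so. CHGA, the granin most used as a marker of endocrine cells, had 0 counts in all 12 libraries, and CHGB had 1 count in WT replicate 2 and 0 in the others. Neither gene was detectable with alpha or beta at this depth. VGF, a granin-like precursor of several neuropeptides, was expressed in every library. Their promoter windows are shown because CHGA and VGF differ in this way and yet share a sequence element. The windows run from 250 bases before to 50 bases after the annotated start, come from RefSeq on build GRCh38.p14 (the submitters list hg19, whose coordinates differ), and are printed 5′ to 3′ on the strand of the gene. The CHGA window is chr14:92922900-92923199 on the plus strand and the VGF window chr7:101165520-101165819 on the minus strand, and capitals mark the cyclic AMP response element TGACGTCA.
CHGA: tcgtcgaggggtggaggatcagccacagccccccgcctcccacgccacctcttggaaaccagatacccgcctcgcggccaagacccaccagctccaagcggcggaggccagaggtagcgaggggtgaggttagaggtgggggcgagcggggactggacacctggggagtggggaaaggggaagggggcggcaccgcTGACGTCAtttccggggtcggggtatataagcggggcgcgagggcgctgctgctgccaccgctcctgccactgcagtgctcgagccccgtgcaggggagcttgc
VGF: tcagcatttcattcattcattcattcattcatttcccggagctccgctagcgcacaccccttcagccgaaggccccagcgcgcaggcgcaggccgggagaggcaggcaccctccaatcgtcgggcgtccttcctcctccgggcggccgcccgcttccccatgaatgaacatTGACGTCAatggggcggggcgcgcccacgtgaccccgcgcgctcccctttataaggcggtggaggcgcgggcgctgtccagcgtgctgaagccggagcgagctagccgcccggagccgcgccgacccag
The table held windows for 7 of the 10 genes, 13 windows in all. They were searched on both strands for TGACGTCA, for the AP-1 element TGANTCA and for GAAAGT, letters found in described PRDM1 sites; none of these letter strings is part of another. TGACGTCA was in 1.85% of all 35116 windows of this length, and among the 13 windows in those of CHGA and VGF. A match is a description of the letters and was not tied to any measurement here.

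VGF stood at 11.8 and 12.2 CPM in WT, 21.5 and 20.1 in KO2, 8.92 and 8.96 in KO5, 11.4 and 11.6 for GFP, 16.1 and 16.1 for alpha, and 21.2 and 21.2 for beta. The order of the group means was KO5, GFP, WT, alpha, KO2 and beta, and of the neighbours in it KO2 and beta overlapped. WT and GFP did not overlap but differed by only -0.06 ± 0.08 on the log2 scale (GFP against WT, fitted difference ± standard error, as for all such values below, n = 2 libraries per group). Against GFP the fitted difference was 0.49 ± 0.09 with alpha and 0.89 ± 0.09 with beta.

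SCG2, secretogranin II, is the precursor of the peptide secretoneurin and had the widest spread of the granins. Its level was 0.685 and 0.643 CPM in WT, 0.387 and 0.449 in KO2, 1.07 and 1.22 in KO5, 0.63 and 0.8 for GFP, 6.58 and 8.48 for alpha, and 21.3 and 22.6 for beta. All 4 libraries with a PRDM1 form were above all 8 others, and the beta libraries above the alpha libraries. Against GFP the fitted difference was 3.38 ± 0.26 (10.4-fold) with alpha and 4.94 ± 0.25 (30.6-fold) with beta, on 16 and 22 counts in the GFP libraries. The mean beta level of 21.9 ± 0.91 CPM (SD, n = 2) was similar to the VGF level in the same libraries, and per kilobase of merged exons (GENCODE 29 models, which may differ from those used for counting) SCG2 was at 8.05 and VGF at 7.84 CPM per kilobase with beta. In WT the same measure gave 0.244 for SCG2 and 4.44 for VGF.

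SCG5 encodes the chaperone 7B2 of prohormone convertase 2 and was close to the detection limit. It had 10 and 16 counts in WT, 1 and 1 in KO2, 9 and 8 in KO5, 6 and 8 for GFP, 10 and 11 for alpha, and 3 and 3 for beta. The alpha libraries lay above GFP and the beta libraries below it, without overlap. The count ratio was 1.82 (95% exact binomial interval 0.88 to 3.86) for alpha against GFP and 0.525 (interval 0.165 to 1.45) for beta against GFP, so that neither difference from GFP exceeded counting error. Alpha against beta gave 3.46 (interval 1.35 to 10.5). Intervals here cover counting error only. RefSeq places a readthrough transcript and an antisense RNA over SCG5, and although the library kit keeps strand, whether counting used it is not stated, so the source of its few reads is uncertain.

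The RAB27 pair differed in level and in behaviour. RAB27A, which acts in secretion of lysosome-related organelles and exosomes, stood at 23.1 and 22.5 CPM in WT, 24.2 and 25.5 in KO2, 20 and 18.8 in KO5, 23.7 and 25.8 for GFP, 24.1 and 22.5 for alpha, and 25 and 25.4 for beta. It was the steadiest of the expressed members, with fitted differences from GFP of -0.08 ± 0.07 with alpha and 0.04 ± 0.07 with beta. RAB27A overlaps the gene PIGBOS1, which had at most 293 counts in any library.

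RAB27B, its paralog of secretory granules, was at 0.521 and 0.572 CPM in WT, 0.364 and 0.365 in KO2, 0.333 and 0.175 in KO5, 0.551 and 0.763 for GFP, 15 and 15.4 for alpha, and 3.04 and 4.18 for beta. The order of the PRDM1 forms was thus the opposite of that for SCG2. Against GFP, at 14 and 21 counts, the fitted difference was 4.52 ± 0.26 (23-fold) with alpha and 2.47 ± 0.28 (5.55-fold) with beta. Per kilobase of merged exons RAB27B stood at 0.0884 CPM per kilobase against 4.41 for RAB27A in the GFP cells, and at 2.05 against 4.16 with alpha.

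SYTL2 and SYTL3 encode Slp2 and Slp3, which bind RAB27 through an amino-terminal domain and membranes through tandem C2 domains. SYTL2 had 2 to 18 counts per library, at 0.105 to 0.364 CPM, and its groups differed by less than counting error, with ratios of 0.968 (interval 0.414 to 2.22) for alpha and 0.735 (interval 0.283 to 1.79) for beta against GFP. SYTL3 stood at 7.56 and 8.08 CPM in WT, 0.387 and 0.59 in KO2, 0.333 and 0.28 in KO5, 6.49 and 6.98 for GFP, 16.8 and 16.8 for alpha, and 11.7 and 10.3 for beta. Its groups followed the order KO5, KO2, GFP, WT, beta and alpha with no overlap between neighbours. The step between KO5 and KO2, on 18 against 38 counts, was within counting error (ratio 0.643, interval 0.346 to 1.15). The fitted difference from GFP was 1.32 ± 0.11 with alpha and 0.71 ± 0.11 with beta, and GFP against WT gave -0.22 ± 0.11.

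PCLO encodes Piccolo, a scaffold of the presynaptic active zone that also occurs in endocrine cells. It stood at 11.3 and 12.5 CPM in WT, 2.66 and 1.77 in KO2, 1.03 and 0.875 in KO5, 14.1 and 12.8 for GFP, 5.13 and 6.05 for alpha, and 1.73 and 1.9 for beta. The WT and GFP libraries were the 4 highest, and PCLO was lower both where PRDM1 was targeted and where it was overexpressed. Against GFP the fitted difference was -1.27 ± 0.12 with alpha and -2.87 ± 0.19 with beta (7.3-fold lower), and GFP against WT gave 0.17 ± 0.09. The beta and KO2 libraries overlapped in level.

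The fold changes of the 7 genes are drawn side by side for the overexpression and the knockout comparisons, which share no libraries with each other. In the comparisons among alpha, beta and GFP the genes had been chosen with results known, and the share of all genes called there (37.5% for alpha against GFP, 40.9% for beta against GFP and 6.24% for alpha against beta, of which 3.45% higher and 2.79% lower with alpha, edgeR adjusted p under 0.05) is given only as background for the lists below.

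**Figure D2:**
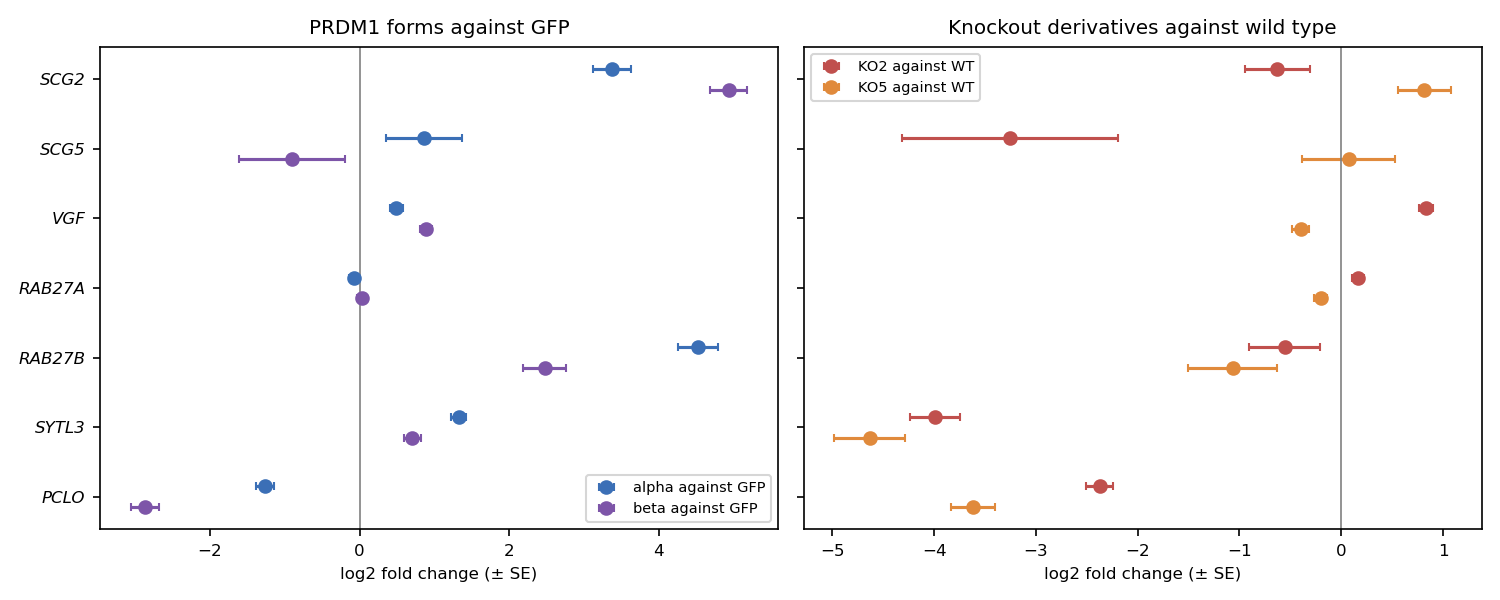
Log2 fold change (horizontal axis) of 7 granin and exocytosis genes for alpha and beta against GFP (left) and for KO2 and KO5 against WT (right); points are fitted values and bars ± 1 standard error, n = 2 libraries per group. SCG2 and RAB27B lie far to the right with both PRDM1 forms, SYTL3 lies to the right on the left panel and far to the left on the right panel, and PCLO lies to the left in all 4 comparisons.

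In KO2 against WT, SYTL3 and PCLO lost most of their transcripts, SCG5 fell from few counts to almost none, and VGF rose. SYTL3 fell by 3.99 ± 0.25 on the log2 scale (15.9-fold, adjusted p = 8.9e-25) and PCLO fell by 2.37 ± 0.13 (5.17-fold, adjusted p = 8.09e-22). Both KO2 libraries were far below both WT libraries for each gene. SCG5 fell by 3.26 ± 1.06 (adjusted p = 0.000426), on 2 counts in KO2 against 26 in WT, a count ratio of 0.0894 (interval 0.0103 to 0.357). SCG5 entered the test through the alpha libraries. Its adjusted p was 0.000957 with no filter and 0.0288 with the DESeq2 Wald test. With the filter and fit on KO2 and WT alone it was 0.00127, but there SCG5 could pass the filter only through WT, where it was higher. VGF rose by 0.83 ± 0.07 (adjusted p = 5.7e-15). RAB27A rose by 0.16 ± 0.06 (adjusted p = 0.0248), a call lost without WT replicate 2 (0.14, adjusted p = 0.189), without KO2 replicate 2 (0.12, adjusted p = 0.219) and with the DESeq2 Wald test (0.17, adjusted p = 0.159). SCG2 at -0.63 ± 0.32 (adjusted p = 0.124) and RAB27B at -0.56 ± 0.35 (adjusted p = 0.222) did not pass. Of the 7 genes tested 2 rose and 3 fell, SCG5 among the latter, where 30% of all genes tested were called in this comparison.

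In KO5 against WT the losses of SYTL3 and PCLO recurred, while VGF fell instead of rising. SYTL3 fell by 4.63 ± 0.35 (24.8-fold, adjusted p = 4.19e-24) and PCLO fell by 3.62 ± 0.22 (12.3-fold, adjusted p = 2.23e-24). VGF fell by 0.40 ± 0.09 (adjusted p = 4.72e-05). These 3 calls held without any library in turn. SCG2 rose by 0.82 ± 0.26 (adjusted p = 0.00821), a call lost without WT replicate 2 (0.76, adjusted p = 0.0706) or KO5 replicate 2 (0.72, adjusted p = 0.0874). RAB27A fell by 0.20 ± 0.06 (adjusted p = 0.00674), lost without KO5 replicate 2 (-0.15, adjusted p = 0.123) and with the DESeq2 Wald test (adjusted p = 0.0647). RAB27B fell by 1.07 ± 0.44 (adjusted p = 0.0252), on 15 counts against 51, and this call was lost without WT replicate 2 (-0.99, adjusted p = 0.121), without KO5 replicate 2 (-0.69, adjusted p = 0.268) and with the DESeq2 Wald test (adjusted p = 0.0525). SCG5 stood at 0.07 ± 0.46 (adjusted p = 0.908). In all 1 of the 7 genes rose and 5 fell, or 3 in all without KO5 replicate 2, where 51.2% of all genes were called.

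The knockout derivatives were also compared with each other. Relative to KO2, KO5 held less VGF (-1.23 ± 0.08, adjusted p = 5.16e-19), less PCLO (-1.25 ± 0.24, adjusted p = 6.84e-06) and less RAB27A (-0.36 ± 0.06, adjusted p = 3.6e-06). It held more SCG2 (1.45 ± 0.31, adjusted p = 6.95e-05) and more SCG5 (3.33 ± 1.08, adjusted p = 0.000287), the latter on 17 counts against 2. On KO5 and KO2 alone SCG5 did not pass the filter and gave no value. Its adjusted p was 0.000781 with no filter and 0.012 with the DESeq2 Wald test. For SYTL3 (-0.64 ± 0.42, adjusted p = 0.171) and RAB27B (-0.51 ± 0.47, adjusted p = 0.352) the derivatives were not shown to differ. Of the 7 genes 2 were higher in KO5 and 3 lower, where 26.9% and 28.1% of all genes were called in these directions, 54.9% together. Without SCG5, on those 4 libraries alone, 1 was higher and 3 lower of 6 tested. WT is shared by both knockout comparisons.

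SYTL3 and PCLO fell in both knockouts, and their promoter windows are shown for that reason. For SYTL3 the upstream of 2 windows is printed, chr6:158649804-158650103 on the plus strand, and for PCLO the single window, chr7:83162835-83163134 on the minus strand. RAB27B, highest with alpha, is shown by the downstream of its 2 windows, chr18:54828227-54828526 on the plus strand. All 3 come from RefSeq on GRCh38.p14, and capitals mark TGANTCA.
SYTL3: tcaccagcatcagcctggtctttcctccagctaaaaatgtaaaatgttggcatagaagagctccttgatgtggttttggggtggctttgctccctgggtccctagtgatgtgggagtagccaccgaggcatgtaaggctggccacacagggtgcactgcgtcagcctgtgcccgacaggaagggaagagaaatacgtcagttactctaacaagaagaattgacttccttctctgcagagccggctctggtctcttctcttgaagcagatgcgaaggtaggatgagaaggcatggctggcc
PCLO: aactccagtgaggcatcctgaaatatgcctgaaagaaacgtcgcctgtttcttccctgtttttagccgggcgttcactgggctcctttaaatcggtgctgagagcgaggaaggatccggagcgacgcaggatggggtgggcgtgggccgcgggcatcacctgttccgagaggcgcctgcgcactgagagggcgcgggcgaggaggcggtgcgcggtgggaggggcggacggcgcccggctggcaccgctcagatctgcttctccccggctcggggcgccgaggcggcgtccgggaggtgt
RAB27B: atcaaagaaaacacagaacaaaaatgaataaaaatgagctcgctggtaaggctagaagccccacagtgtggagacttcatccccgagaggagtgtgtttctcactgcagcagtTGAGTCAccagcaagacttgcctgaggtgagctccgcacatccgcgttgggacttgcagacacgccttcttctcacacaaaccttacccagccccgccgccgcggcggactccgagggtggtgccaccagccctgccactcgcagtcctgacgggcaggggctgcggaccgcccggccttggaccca
The PCLO window held 33 CpG dinucleotides at 67% GC and the SYTL3 window shown 6 at 52.7%, against medians of 14 CpG and 58.7% GC over all windows. The SYTL3 window not shown held 1 CpG at 37.3% GC, and which start these cells use was not tested. TGANTCA was in the RAB27B window shown, in the other SYTL3 window and in 2 of the 5 RAB27A windows, and in 7.71% of all windows. GAAAGT was in 2 RAB27A windows and in 13.3% of all windows. No other match to these letters was found in the windows of the 7 genes, which says nothing on binding elsewhere.

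Other genes of the pathway were read from 6 lists of 109 genes covering prohormone processing, dense core vesicle formation, RAB27 and RAB3 effectors, SNAREs, calcium sensors and the active zone. Of the 109 genes 42 were not tested, and none of these reached more than 11 counts in any library. They included the prohormone convertases PCSK1 and PCSK2, at 0 in all libraries, the granin partner SCG3, the carboxypeptidase CPE and the vesicle SNARE partner SNAP25 with at most 1 count, and the active zone scaffolds BSN with at most 1 and RIMS1 with 0.

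With alpha 25 of the 67 rose, 9 fell and 33 did not pass, and with beta 23 rose, 10 fell and 34 did not pass. That is 50.7% and 49.3% called, against 37.5% and 40.9% of all genes. Of all genes 21.2% rose and 16.3% fell with alpha, and 22.9% rose and 18% fell with beta. The median log2 fold change was 0.07 and 0.11, against 0.01 and 0.01 over all genes. Without alpha replicate 1 the alpha count was 20 in place of 34. Both comparisons share the GFP libraries.

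Of 8 tested genes of granin partners and prohormone processing 5 rose with alpha and 4 with beta, and none fell. That is 62.5% and 50% called, against 37.5% and 40.9% of all genes. PAM, which amidates peptide hormones, rose by 0.76 ± 0.04 with alpha (112 to 190 CPM, adjusted p = 4.93e-24) and by 0.98 ± 0.04 with beta (adjusted p = 1.11e-28). Of 22 SNARE genes and their partners 9 rose and 0 fell with alpha, and 8 rose and 1 fell with beta. The called share of 40.9% with each form was near or at that of all genes. STX3, a plasma membrane syntaxin, rose by 0.55 ± 0.04 with alpha (adjusted p = 3.48e-18) and by 0.54 ± 0.04 with beta (adjusted p = 7.06e-18).

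RAB27 and RAB3 effectors and regulators were split. Of 15 tested genes 4 rose and 4 fell with alpha, and 3 rose and 4 fell with beta. That is 53.3% and 46.7% called, against 37.5% and 40.9% of all genes. SYTL4, which encodes the granule effector granuphilin, fell by 0.74 ± 0.11 with alpha (adjusted p = 3.07e-07) and by 0.76 ± 0.11 with beta (adjusted p = 1.54e-07). RAB3B, a GTPase of secretory vesicles, rose by 0.44 ± 0.03 with alpha (adjusted p = 5.46e-15) and by 0.29 ± 0.03 with beta (adjusted p = 1.31e-09). Thus 2 paralogs of the same effector family, SYTL3 (not tested here) and SYTL4, lay on opposite sides of GFP with both forms. Their paralog SYTL1 rose with beta (0.365 ± 0.111, adjusted p = 0.00751) and did not pass with alpha (0.138 ± 0.114, adjusted p = 0.372).

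Dense core vesicle formation counted 3 rises and 3 falls among 10 with each form, 60% called. Calcium sensors and priming factors counted 3 rises with alpha and 4 with beta among 8, with no falls. That is 37.5% and 50% called, against 37.5% and 40.9% of all genes, so with alpha the share was that of all genes. The active zone counted 1 rise and 2 falls among 4 with each form, 75% called. In the last list RIMS3 fell by 0.41 ± 0.09 with alpha (adjusted p = 0.000155) and by 0.47 ± 0.10 with beta (adjusted p = 2.47e-05), a smaller difference than that of PCLO. Between the forms 4 of the 67 genes differed, against 6.24% of all genes. PAM (-0.22 ± 0.04, adjusted p = 1.97e-06), STXBP5 (-0.24 ± 0.07, adjusted p = 0.0318) and SNAP23 (-0.14 ± 0.05, adjusted p = 0.0323) were lower with alpha than with beta and RAB3B was higher (0.15 ± 0.03, adjusted p = 0.00198). The count was 1 without alpha replicate 1 and 2 without alpha replicate 2, beta replicate 1 or beta replicate 2.

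**Figure D3:**
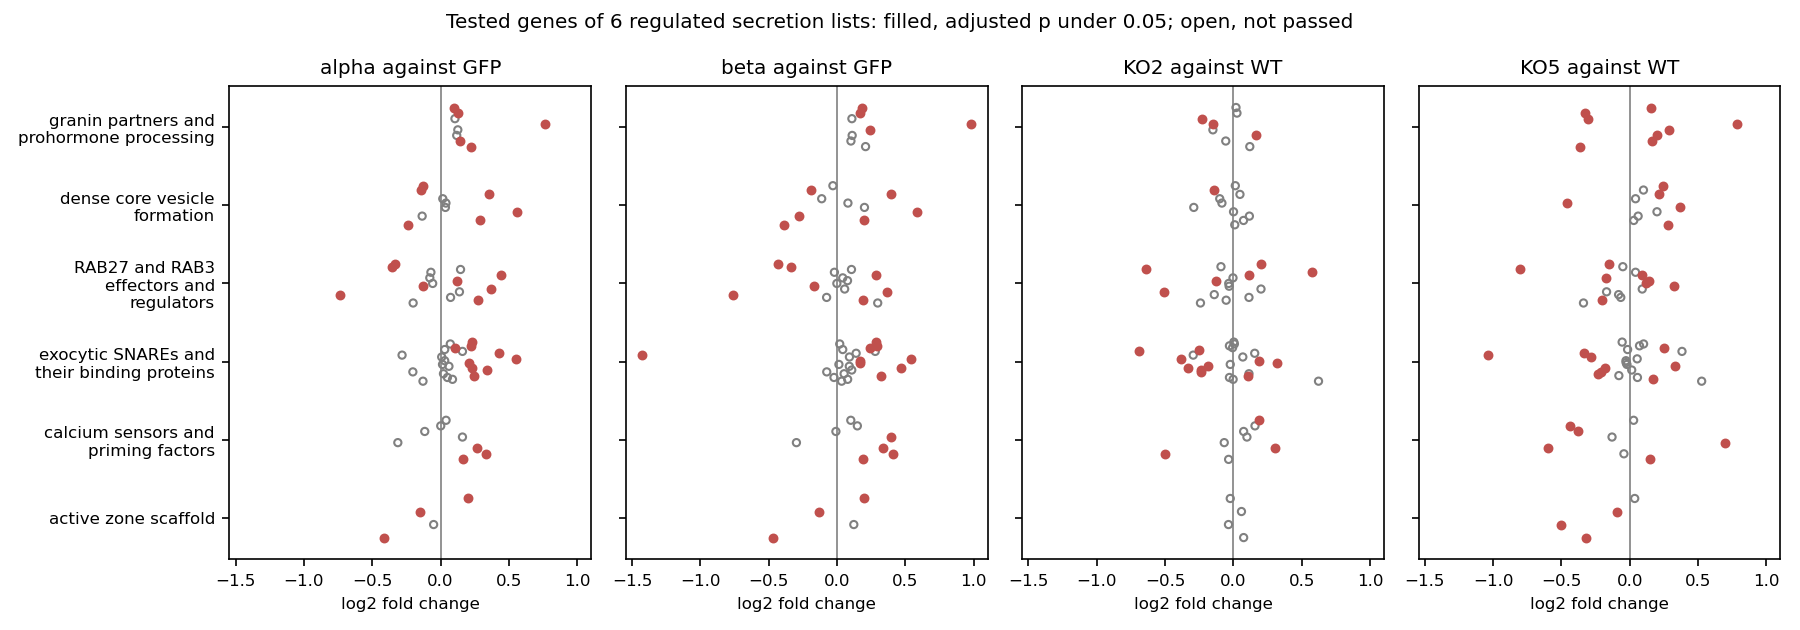
Log2 fold change (horizontal axis) of the 67 tested genes of 6 regulated secretion lists (rows) in 4 comparisons (panels); filled points passed an adjusted p of 0.05 and open points did not, and heights within a row only separate the genes. Filled points of the prohormone processing row all lie right of 0 with alpha and beta, while those of KO5 fall on both sides.

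The same lists were read in the knockouts. In KO2 against WT 9 of the 67 rose and 14 fell, 34.3% against 30% of all genes, and in KO5 against WT 18 rose and 20 fell, 56.7% against 51.2%. The medians were -0.01 and 0.01, against -0.0014 and -0.0043 over all genes. In KO2, STX3 fell by 0.38 ± 0.04 (adjusted p = 1.05e-12) and FURIN, a convertase of the constitutive pathway, fell by 0.23 ± 0.04 (adjusted p = 1.43e-05), while RAB3A rose by 0.58 ± 0.10 (adjusted p = 2.86e-06). Of all genes 15.1% rose and 14.9% fell in KO2, and 25.2% rose and 25.9% fell in KO5.

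In KO5, PAM rose by 0.79 ± 0.04 (adjusted p = 1.3e-25) and STXBP3, a partner of syntaxins, rose by 0.33 ± 0.05 (adjusted p = 1.37e-08). SYT7, a calcium sensor of slow exocytosis, fell by 0.60 ± 0.07 (adjusted p = 1.93e-09), HID1, a factor of dense core vesicle formation, fell by 0.46 ± 0.05 (adjusted p = 8.63e-11), RAB26 fell by 0.81 ± 0.14 (adjusted p = 1.43e-06) and PPFIA3, a liprin of the active zone, fell by 0.51 ± 0.08 (adjusted p = 4.61e-07). In KO2, by contrast, SYT7 rose by 0.31 ± 0.06 (adjusted p = 1e-04), PAM fell by 0.15 ± 0.04 (adjusted p = 0.000484) and STXBP3 fell by 0.19 ± 0.05 (adjusted p = 0.000822), while RAB26 fell there too, by 0.64 ± 0.12 (adjusted p = 3.42e-05). All 8 tested processing genes were called in KO5 against WT, with 5 rises and 3 falls, where 51.2% of all genes were called. The called share of the other lists in that comparison ran from 40.9% to 75%. Between KO5 and KO2 24 of the 67 genes were higher in KO5 and 20 lower, 65.7% against 54.9% of all genes. The syntaxin gene STX11 was 1.08 ± 0.22 higher in KO5 (adjusted p = 2.72e-05) and SYT7 was -0.90 ± 0.07 relative to KO2 (adjusted p = 5.47e-15).

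Genes with a pattern like that of single members were looked for by Pearson correlation of log2 CPM over the 12 libraries. The search covered 477 tested genes whose highest group mean reached 5 CPM, with a range of at least 1 on the log2 scale. Members and LOC, LINC, MIR, SNOR, antisense and intronic transcript symbols had been left out of these. The libraries form 6 groups that the log2 CPM values share, so the coefficients are descriptions. For SCG2 the closest were ITGA6 (0.98), an integrin subunit gene, ANKRD33B (0.98) and FAM171B (0.98). Their ranges over groups, from mean log2 CPM with a prior count of 2, were 1.27, 1.02 and 1.54. All were narrower than the fitted difference of 4.94 of SCG2 between beta and GFP, which is a different measure. For RAB27B they were HMGCS1 (0.98), an enzyme of sterol synthesis, RGS2 (0.98), a regulator of G protein signalling, and BCAR3 (0.98). RGS2 had the widest range of these, from 3.36 CPM in KO2 to 69.8 with alpha and 30.8 with beta.

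The same search was made for SYTL3 and PCLO, chosen after their values were seen. The closest to SYTL3 were 3 zinc finger genes, ZFP82 (0.996), ZFP28 (0.989) and ZNF470 (0.988). ZFP28 stood at 27.3 CPM in WT, 2.04 in KO2, 2.12 in KO5, 26.7 with GFP, 56.1 with alpha and 27.1 with beta. ZFP82 stood at 5.41, 0.113, 0.0674, 5.08, 10.6 and 7.96 CPM in the same order. Like SYTL3 these genes were low in both knockouts and highest with alpha. The closest to PCLO was NNMT (0.923), nicotinamide N-methyltransferase, at 38.3 CPM in WT, 6.98 in KO2, 6.26 in KO5, 39.7 with GFP, 9.98 with alpha and 5.36 with beta, followed by ZNF248 (0.875) and ZNF569 (0.733). NNMT shares with PCLO the low level in both the knockout and the overexpression groups. ZNF248 stood at 57.9 CPM with alpha and 31.5 with beta, against 70 with GFP. ZNF569 stood at 88.3 CPM with alpha and 38.8 with beta, against 60 with GFP. Relative to GFP, neither zinc finger gene was as low with alpha as PCLO.

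**Figure D4:**
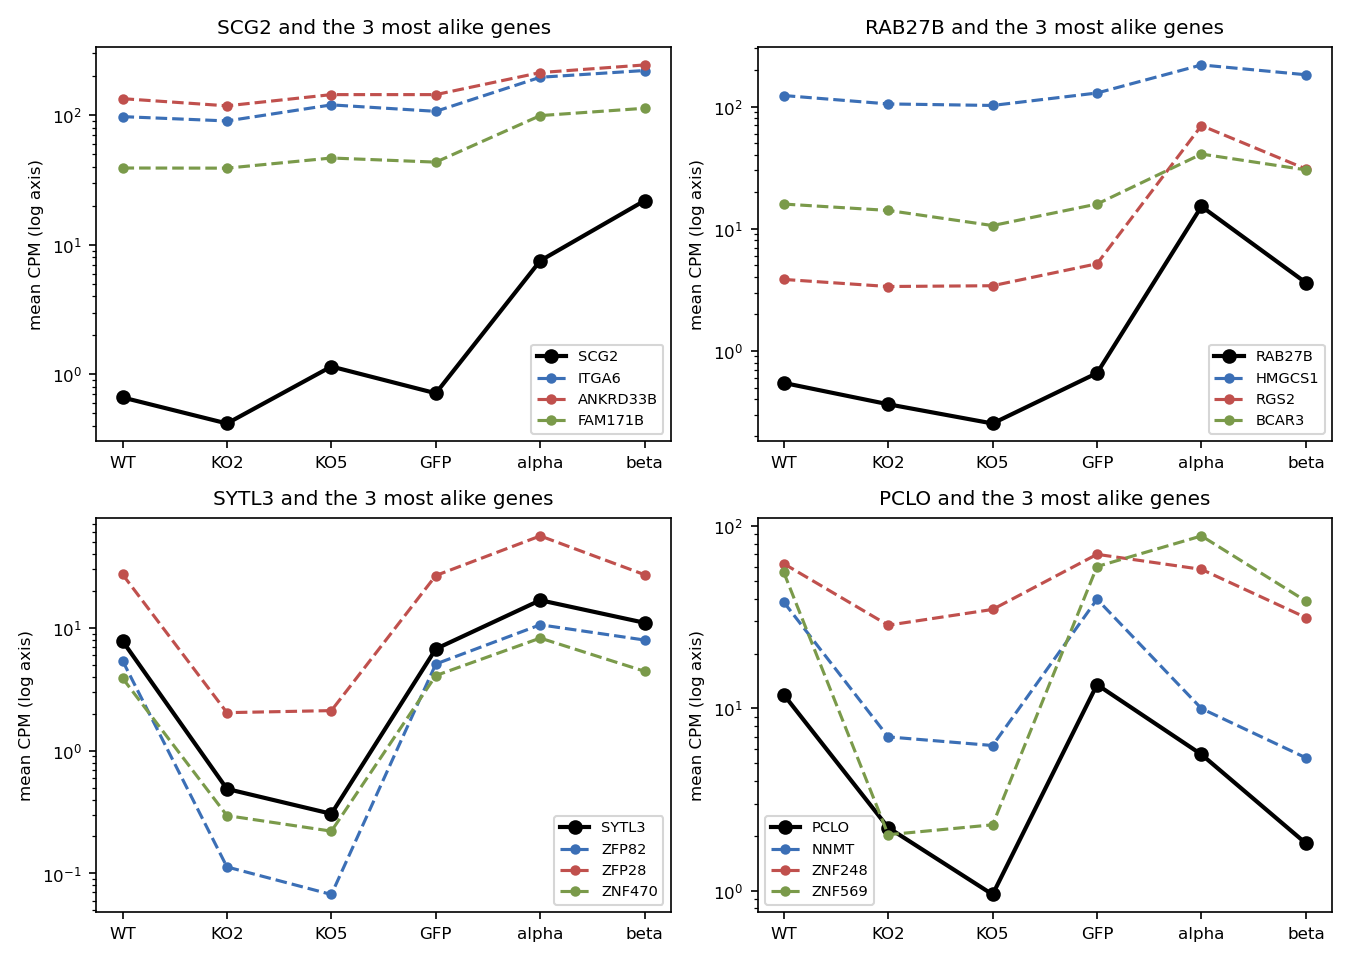
Mean CPM (vertical axis, log scale, n = 2 libraries per point) across the 6 groups for SCG2, RAB27B, SYTL3 and PCLO (black solid lines) and for the 3 genes with the highest Pearson correlation to each (coloured dashed lines); lines only join the groups. SYTL3 and the 3 zinc finger genes drop together in KO2 and KO5, and NNMT, like PCLO, is low in KO2, KO5, alpha and beta.

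The authors compared overexpression with knockout directly. In the authors' deposited table for alpha, the log2 fold change was 1.48 with a standard error of 0.20 for SCG2, 3.90 and 0.18 for RAB27B, 3.84 and 0.18 for SYTL3 and 0.83 and 0.20 for PCLO. In the authors' deposited table for beta they were 2.67 and 0.21 for SCG2, 1.81 and 0.21 for RAB27B, 3.20 and 0.19 for SYTL3 and 0.07 and 0.20 for PCLO. The edgeR fit, with KO2 and KO5 weighted equally, gave for alpha 3.41 ± 0.18 for SCG2, 5.60 ± 0.25 for RAB27B, 5.42 ± 0.22 for SYTL3 and 1.90 ± 0.16 for PCLO. For beta it gave 4.97 ± 0.17, 3.55 ± 0.27, 4.80 ± 0.22 and 0.29 ± 0.21 in the same order. In both sources SCG2, RAB27B and SYTL3 were higher with each form than in the knockouts, PCLO was higher with alpha, and the authors' deposited tables gave the smaller values for all 4 genes. Which libraries those tables used and whether their fold changes were shrunken is not stated.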

How the data were processed

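The submitters' processing notes list Cufflinks, TopHat, Bowtie2 and build hg19; their versions, the read counter, its annotation and its strand setting are not given in the sources used here. Each library has a table of raw counts by gene symbol, deposited by the authors without scaling. The 2 of 26366 entries that name no gene (9.13% to 10.8% and 1.66% to 1.75% of reads) were dropped. Log2 fold changes and standard errors of overexpression against knockout were read from tables the authors deposited under the name of DESeq2; a further table without a named form duplicates the one for beta and is left aside.

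The tests used edgeR 4.0.16 under R 4.3.3, with filterByExpr (12858 of 26364 genes left), TMM scaling, a robust quasi-likelihood fit of all 12 libraries with a mean per group, glmQLFTest and Benjamini-Hochberg adjustment over all genes at 0.05. Standard errors are Wald errors of the fit, never using a quasi-likelihood dispersion below 1. Filtering favours genes that are high in any group, and few counts make a fold change depend on the prior count. The fit was tested on simulated data. Replicates differed by more than sampling noise in each group (chi-square per degree of freedom 1.68 to 2.77). The common biological coefficient of variation was only 2.18%, and whether replicates are separate cultures is not stated. CPM were computed from the counts, and count ratios carry 95% exact binomial intervals. The 10 genes, the lists, tests, naming rule and alternatives were chosen with earlier results of these data known. The rule names the 10 genes, up to 3 called genes per list and comparison with at least 1 CPM in the higher group, by size, and 3 genes of like pattern; the text gives part of them. Alternatives were DESeq2 1.42.0 size factors and its Wald test, no filter, only the compared groups, a replicate block and each library left out.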

Additional observations from a re-analysis of the deposited data

Results flagged for a closer look

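Several effects differed between the knockout derivatives, by the edgeR test of KO5 against KO2, which is the difference of their effects against WT. For the granins this difference (KO5 minus KO2, log2) was 1.45 ± 0.31 for SCG2, 3.33 ± 1.08 for SCG5 and -1.23 ± 0.08 for VGF, and VGF was above WT in both KO2 libraries and below it in both KO5 libraries. It was -0.36 ± 0.06 for RAB27A and -1.25 ± 0.24 for PCLO. Among genes of the lists it was 0.93 ± 0.04 for PAM, 1.08 ± 0.22 for STX11, 0.52 ± 0.05 for STXBP3, 0.44 ± 0.04 for STX3, -0.90 ± 0.07 for SYT7, -0.54 ± 0.11 for RAB3A, -0.47 ± 0.08 for PPFIA3 and -0.38 ± 0.05 for HID1. Of all genes tested 54.9% differed in that comparison.

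Between the PRDM1 forms the difference of the effects against GFP (alpha minus beta, log2) was -0.22 ± 0.04 for PAM, 0.15 ± 0.03 for RAB3B, -0.24 ± 0.07 for STXBP5 and -0.14 ± 0.05 for SNAP23. Both SCG5 libraries with alpha lay above GFP and both with beta below it, with a fitted difference of 1.76 ± 0.67 that was not tested. Its counts were few, and neither ratio to GFP exceeded counting error (intervals 0.88 to 3.86 for alpha and 0.165 to 1.45 for beta).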

How the results depend on the processing

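The falls of SYTL3 and PCLO in KO2 and KO5, the opposite calls of VGF and the differences of SCG2, SCG5, VGF, RAB27A and PCLO between KO5 and KO2 kept their direction and passed under every alternative that gave a value. No called gene changed direction. Of differences given without a test 3 near 0 changed sign: RAB27A in beta against GFP (0.04, and -0.02 without GFP replicate 1), SCG2 in GFP against WT (0.13, and -0.07 without GFP replicate 2) and SCG5 in GFP against WT (-0.08, and 0.06 without GFP replicate 1). Calls of RAB27A, RAB27B and SCG2 against WT, and of RAB3B, STXBP5 and SNAP23 between the forms, were lost under some alternatives. Without each library in turn, called list genes ranged from 20 to 30 for alpha against GFP (main count 34) and from 1 to 2 for alpha against beta (main count 4), and called members in KO5 against WT from 3 to 6. The DESeq2 Wald test called 2 list genes between alpha and beta. A left-out library leaves its group with 1, which is assumed to vary like the others. No pairing of the samples by replicate number was seen over the tested genes. The correlation of same-numbered deviations lay between -0.0655 and 0.0564 over 15 pairs of groups, positive in 5. A batch shared by some genes only could be missed in this way. With a replicate block the counts of called list genes were 32, 33, 4, 21, 37 and 44 in place of 34, 33, 4, 23, 38 and 44. Their order is alpha and beta against GFP, alpha against beta, KO2 and KO5 against WT, and KO5 against KO2. Depth limits SCG5, SYTL2, CHGA and CHGB, where changes within their counting intervals could not be seen.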
